A study of Mus musculus with 2 samples.

Results

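Decorin-rich (Dcn-high) basal keratinocytes of the mouse cheek lining were taken as cells with at least 15 Dcn and at least 20 Krt14 unique molecular identifiers (UMIs) per 10000 UMIs of the cell. There were 231 such cells among 15470 kept cells, 98 in library 1 and 133 in library 2. Their comparison group, called Dcn-low basal cells, had Dcn under 15, Krt14 of at least 40 and Krt4 plus Krt13 under 80 per 10000, and held 2864 and 3331 cells. The cells came from the buccal mucosa of 10 pooled C57BL/6 female mice aged 12 weeks, sorted for high surface CD104 (the β4-integrin chain, gene Itgb4) and captured on the 10x Chromium platform. A single suspension was divided into 2 technical replicates, so there was 1 independent sample, no other group of mice, and no test across animals. A difference is called higher or lower below only where the sums over cells, in counts per 1000000 UMIs (CPM), differed at least 1.5-fold in the same direction in both libraries, for genes with a mean of at least 20 CPM; intervals cover counting error only.

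Decorin is a small leucine-rich proteoglycan that binds collagen fibrils and growth factors, and in most tissues it is a product of fibroblasts. Basal keratinocytes sit on the basement membrane through hemidesmosomes built around the α6β4 integrin, and are marked by the keratins Krt5 and Krt14. Krt15 marks slowly dividing basal cells in several stratified epithelia, and Krt17, Krt16 and the Krt6 keratins are known as stress or appendage keratins of the skin.

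The deposited tables held 7215 barcodes and 67962712 UMIs in library 1 and 9076 barcodes and 73935792 UMIs in library 2. Of 16291 barcodes, 821 were left out for more than 10% mitochondrial UMIs. The 2 libraries shared 104 barcodes, of which 3 were carried by Dcn-high cells and 0 were Dcn-high in both. Dcn-high cells were 1.42% of kept cells in library 1 (95% exact binomial interval 1.15 to 1.73%) and 1.55% in library 2 (1.30 to 1.84%), so the intervals overlapped. Median depth was close in both classes, at 6117 and 5147 UMIs per Dcn-high cell and 6514 and 5357 UMIs per Dcn-low basal cell in libraries 1 and 2.

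**Figure D1:**
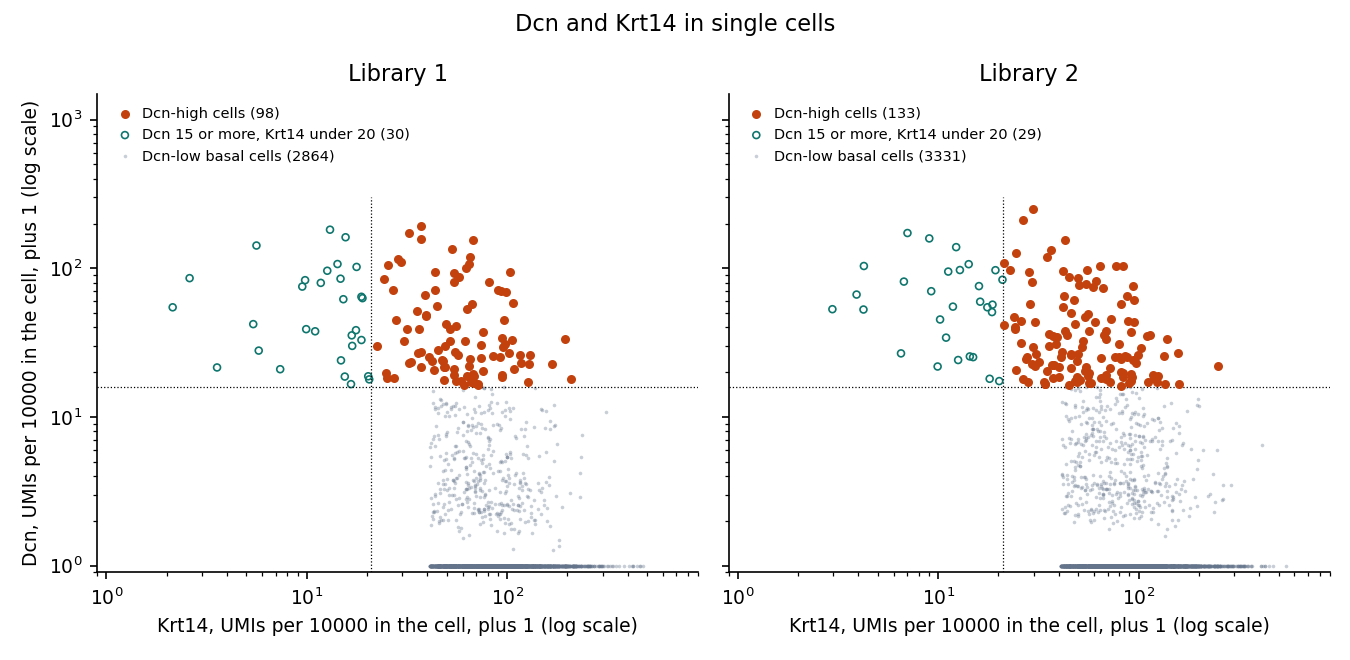
Dcn against Krt14 in single cells of library 1 (left) and library 2 (right), as UMIs per 10000 UMIs of the cell plus 1, on log axes. Dotted lines mark the limits of 15 Dcn and 20 Krt14; the 98 and 133 Dcn-high cells run to the Krt14 limit without a gap, and 59 further cells with as much Dcn lie below it.

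The 4 genes of the rule are described here without a comparison. Dcn (ENSMUSG00000019929, chr10:97479609-97518143, plus strand of GRCm38) reached 4477 and 4206 CPM in Dcn-high cells of libraries 1 and 2, against 58.0 and 66.0 CPM in Dcn-low basal cells. Krt14 stood at 6343 and 6087 CPM in Dcn-high cells and at 9945 and 10183 CPM in Dcn-low basal cells, whose lower limit for Krt14 was set higher. Krt4 and Krt13, keratins of the suprabasal oral layers, were at 934 and 1050 CPM and at 2103 and 1993 CPM in Dcn-high cells, and at 1169 and 1290 CPM and at 2667 and 2649 CPM in Dcn-low basal cells.

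By CPM of summed counts, cells on either side of the Dcn limit were close in Krt15 and Egfl6 and not in Krt17. The 59 cells just inside it (Dcn of 15 to 20) had 3988 CPM of Krt15, 51.7 CPM of Krt17 and 51.7 CPM of Egfl6. The 112 cells just outside it (Dcn of 10 to 15, Krt14 of at least 20) had 3593 CPM of Krt15, 405 CPM of Krt17 and 51.0 CPM of Egfl6. Over the 385 cells at Dcn of 5 to 15, Krt17 was at 236 CPM. Whether a few Krt17-rich cells gave these sums was not tested. On the Krt14 axis, 35 cells lay just inside (Krt14 of 20 to 30) with 1270 CPM of Krt17, and 37 cells lay just outside (Krt14 of 10 to 20) with 3052 CPM. In all, 59 cells had enough Dcn but under 20 of Krt14, and 56 of these had at least 10 of Krt5 per 10000, with 3699 CPM of Krt17 and 9058 CPM of Krt15. Those 56 cells are not among the 231, and the levels given below do not include them.

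When the label was checked, the cells carried the transcripts of basal keratinocytes, and defining transcripts of fibroblasts other than Dcn were at or near 0. Krt5 stood at 3373 and 2888 CPM in Dcn-high cells, against 3454 and 3208 CPM in Dcn-low basal cells. Trp63, the master transcription factor of stratified epithelia, stood at 526 and 549 CPM in Dcn-high cells, against 475 and 491 CPM in Dcn-low basal cells. Over 6308 UMIs of Dcn, the 231 cells held 4 UMIs in total of Col1a1, Col1a2, Col3a1 and Lum, the collagens and lumican that abound in fibroblasts. All 4 were Col1a2, with 1 UMI in each of 4 cells, while Col1a1, Col3a1, Lum, Pdgfra, Dpt, Mfap5 and Pi16 were at 0. A count of 0 in 231 cells allows a share of cells with a UMI of up to about 1.30%. All 15470 kept cells together held 12 UMIs of those 4 genes, never more than 1 in a cell.

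The whole list of 12 fibroblast genes summed to 63.9 and 60.02 CPM in Dcn-high cells and to 5.98 and 5.15 CPM in Dcn-low basal cells. Col6a1, a chain of collagen VI, gave 51 of its 90 UMIs in Dcn-high cells, at 33.5 and 36.3 CPM, against 3.21 and 2.90 CPM in Dcn-low basal cells. Col6a2 gave 23 UMIs, Col5a1 7 and fibrillin gene Fbn1 5. A UMI of the list was held by 64 of 231 Dcn-high cells and by 195 of 6195 Dcn-low basal cells. Among Dcn-high cells it was held by 20 of 126 at Dcn of 15 to 30, 22 of 55 at 30 to 60 and 22 of 50 at 60 and above. No cell of either class held more than 4 UMIs of the list, and the part of these transcripts in the results was not tested. Without the 4 cells with a Col1a2 UMI, 98 genes were higher and 100 lower, against 99 and 100 with them.

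Other relatives of decorin were rare, at 33.5 and 11.3 CPM summed in Dcn-high cells, against 2.58 and 1.80 CPM in Dcn-low basal cells. In Dcn-high cells asporin (Aspn) had 12 UMIs, fibromodulin (Fmod) 8, biglycan (Bgn) 7 and Prelp 4, while Lum, Ogn, Omd, Kera, Epyc, Podn and Ecm2 had 0. None of the 11 members of that family other than Dcn reached the 20 CPM minimum. Lists of markers of other cell types that a sort of oral mucosa could hold are given by their summed levels. Of 8 markers of the hair follicle bulge, Cd34, Lhx2, Lgr5, Postn and Fgf18 were at 0, and the list summed to 77.6 and 83.8 CPM in Dcn-high cells, against 63.8 and 61.4 CPM in Dcn-low basal cells. Of 7 myoepithelial markers, Myh11, Cnn1, Tagln, Actg2 and Oxtr were at 0, with 33.5 and 15.005 CPM summed, against 11.1 and 10.5 CPM. All 5 melanocyte markers were at 0. The sebaceous list summed to 294 and 313 CPM in Dcn-high cells, against 314 and 376 CPM in Dcn-low basal cells. The glandular list summed to 141 and 96.3 CPM, against 165 and 143 CPM, and the interfollicular list to 98.9 and 83.8 CPM, against 83.0 and 130 CPM. None of the 3 lists had a member past the rule.

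Among 5456 genes with at least 20 CPM, 99 (1.81%) were higher and 100 (1.83%) lower in Dcn-high than in Dcn-low basal cells, and the median log2 ratio over all 5456 was -0.03. The 15 highest and the 15 lowest genes are given first, and the gene lists after them. The genes Grp, Pcdh20, Egfl6, Krt17 and Krt15 had been given as markers of these cells from the same data, so their levels are description.

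Grp encodes gastrin-releasing peptide, a neuropeptide of the bombesin family. It stood at 45.6 and 80.03 CPM in Dcn-high cells of libraries 1 and 2, against 0.0972 and 0.05 CPM in Dcn-low basal cells, from 94 and 3 UMIs. The log2 ratio of the pooled counts was 9.77 (95% counting interval 8.18 to 12.07). The 94 UMIs lay in 24 of the 231 cells, so most Dcn-high cells showed none.

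Pcdh20 (chr14:88464743-88471396, minus strand) encodes a protocadherin, an adhesion protein best known from neurons. Its level was 56.3 and 60.02 CPM in Dcn-high cells, against 0.292 and 0.05 CPM in Dcn-low basal cells, from 85 and 7 UMIs, with a pooled log2 ratio of 8.40 (7.30 to 9.76). Egfl6 (chrX:166523007-166585720, minus strand) encodes a secreted matrix protein with EGF repeats, known in mouse skin as a product of the upper bulge. It stood at 344 and 281 CPM in Dcn-high cells, against 28.3 and 27.1 CPM in Dcn-low basal cells, with log2 ratios of 3.60 and 3.37. Both libraries of Dcn-high cells lay above both libraries of Dcn-low basal cells for each of these genes.

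Promoters of 3 genes are shown because Pcdh20 and Egfl6 are class markers and Krt24 was among the genes that differed most between the highest and lowest Dcn levels described below. Of the 18 genes that are class markers or among the 15 highest, 9 had an entry in the RefSeq promoter table (GRCm38.p6). Each is the 250 bases before the annotated start, 5′ to 3′ on the minus strand, and capitals mark a match to TATANAA.
Pcdh20, chr14:88471397-88471646: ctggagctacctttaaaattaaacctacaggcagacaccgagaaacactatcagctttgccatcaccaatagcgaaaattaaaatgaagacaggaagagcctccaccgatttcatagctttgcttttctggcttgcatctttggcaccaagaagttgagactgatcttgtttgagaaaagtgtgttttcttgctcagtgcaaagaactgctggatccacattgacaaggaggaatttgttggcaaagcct
Egfl6, chrX:166585717-166585966: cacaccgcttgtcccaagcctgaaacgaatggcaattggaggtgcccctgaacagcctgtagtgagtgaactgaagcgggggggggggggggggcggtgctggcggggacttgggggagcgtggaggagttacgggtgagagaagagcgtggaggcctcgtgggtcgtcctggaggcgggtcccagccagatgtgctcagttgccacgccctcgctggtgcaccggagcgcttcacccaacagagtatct
Krt24, chr11:99285263-99285512: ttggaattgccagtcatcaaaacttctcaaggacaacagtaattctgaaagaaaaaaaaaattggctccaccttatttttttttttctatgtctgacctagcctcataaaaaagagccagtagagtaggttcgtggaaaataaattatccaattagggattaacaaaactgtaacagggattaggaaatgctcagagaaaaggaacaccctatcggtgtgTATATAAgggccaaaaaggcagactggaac

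The windows differed in base composition, with 42.4% G or C at Pcdh20, 64.8% at Egfl6 and 36.8% at Krt24. The motifs were searched on both strands. The TATA box TATANAA was found once, at Krt24, with 23 bases between it and the start. The palindrome GCCNNNGGC of the TFAP2 factors, searched because Tfap2b was among the highest genes, and the AP-1 letters TGANTCA were in none of the 3 windows. Among the other 6 windows at hand, that of Nppc held 2 matches to GCCNNNGGC and that of Steap4 held 1 to TATANAA. Over all 32851 windows of the table the shares with a match were 10.4% for TATANAA, 13.7% for GCCNNNGGC and 6.75% for TGANTCA.

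Itm2a, a type II membrane protein, stood at 48.7 and 45.0 CPM in Dcn-high cells, against 0.292 and 0.70 CPM in Dcn-low basal cells. Steap4, a metalloreductase, and Nppc, the C-type natriuretic peptide, came next, with log2 ratios of 3.54 and 3.59 and of 3.01 and 3.003. Serpine2, a secreted inhibitor of serine proteases, stood at 65.4 and 128 CPM in Dcn-high cells, against 9.43 and 9.15 CPM in Dcn-low basal cells. The matrix protein Smoc2 had log2 ratios of 1.78 and 1.83. Pappa, a protease that cleaves IGF-binding proteins, had 405 and 423 CPM in Dcn-high cells, against 132 and 120 CPM in Dcn-low basal cells. Lgals1 (galectin-1), Selm (a selenoprotein), St3gal4 (a sialyltransferase), Slc7a5 (a neutral amino acid carrier) and Krt24 completed the 15 highest, with log2 ratios of 1.63 to 2.90.

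Tfap2b, a transcription factor of the AP-2 family, stood at 341 and 323 CPM in Dcn-high cells, against 83.9 and 81.6 CPM in Dcn-low basal cells, with log2 ratios of 2.02 and 1.98. It was the only one of 24 measured epithelial transcription factors to be higher. Klf4 (log2 ratios -1.05 and -1.01), Cebpb (-1.02 and -0.69) and Foxc1 (-0.97 and -0.65) were lower, the first 2 being factors of keratinocyte differentiation, and the other 20 passed in neither direction.

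**Figure D2:**
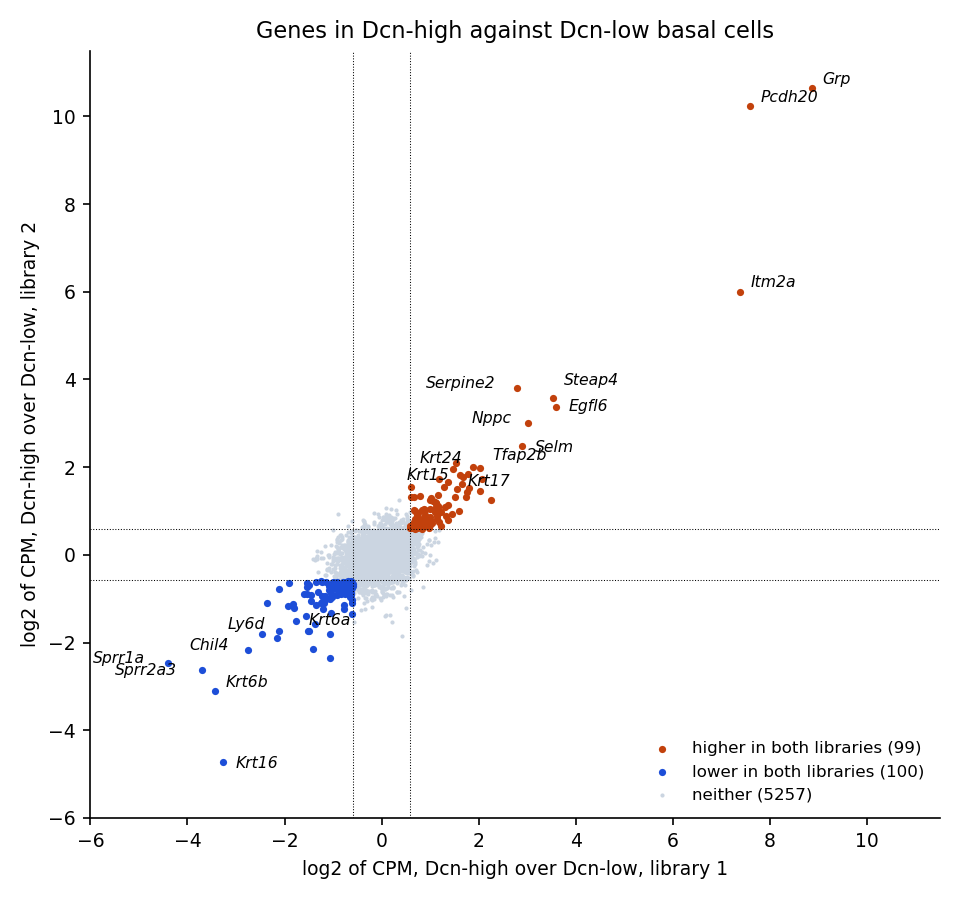
Log2 ratio of CPM, Dcn-high over Dcn-low basal cells, in library 1 (x axis) and library 2 (y axis) for 5456 genes. Dotted lines mark 1.5-fold; 99 genes lie past it upward and 100 downward in both libraries, with Grp, Pcdh20 and Itm2a far above the rest and Krt16 lowest.

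Keratins moved in opposite directions. Krt15 (chr11:100131758-100135928, minus strand) was at 6634 and 6069 CPM in Dcn-high cells, against 1914 and 2121 CPM in Dcn-low basal cells, with log2 ratios of 1.79 and 1.52. All but 1 of the 231 cells held a Krt15 UMI. Krt17 (chr11:100256217-100261029, minus strand) was at 821 and 913 CPM in Dcn-high cells, against 294 and 235 CPM in Dcn-low basal cells, with log2 ratios of 1.48 and 1.96. Without cycling cells the mean log2 ratio of Krt17 was 0.90, against 1.72 with them. Krt16, whose gene lies beside Krt17 in the type I keratin cluster, was at 10.6 and 3.75 CPM in Dcn-high cells, against 102 and 99.6 CPM in Dcn-low basal cells. Krt6a was at 126 and 139 CPM in Dcn-high cells, against 429 and 394 CPM, and Krt6b at 6.08 and 7.502 CPM, against 65.7 and 64.9 CPM. Of the 4 stress keratins measured, Krt17 alone was higher and the other 3 were lower; Krt6a and Krt6b are near-identical copies, so the split of reads between them is uncertain.

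The Krt17 level of Dcn-low basal cells came from few cells. Their 62 richest cells, the top hundredth, held 74.0% of the 10759 Krt17 UMIs of that class, and 14.6% of all Dcn-low basal cells had a UMI. In Dcn-high cells 43.3% had a UMI and the 2 richest cells held 9.06% of 1270 UMIs. With every cell thinned to 3000 UMIs, Krt17 was detected in 37.7% of Dcn-high cells (interval 31.4 to 44.3%), against 8.88% of Dcn-low basal cells (8.18 to 9.61%) and 1 of 48 immune cells.

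The lowest genes beside the keratins are given next. Chil4, a chitinase-like protein, was at 246 and 279 CPM in Dcn-high cells, against 1662 and 1249 CPM in Dcn-low basal cells. Ly6d, a surface protein of the Ly6 family, was at 236 and 304 CPM in Dcn-high cells, against 1048 and 1128 CPM. The cornified envelope precursors Sprr1a (log2 ratios -4.40 and -2.46) and Sprr2a3 (-3.69 and -2.64) and the prolyl hydroxylase Egln3 (-2.47 and -1.80) were lower as well. Crabp2, Tmem45a, Pdzk1ip1, Dapk2, Ppp2r2c, 2200002D01Rik and 2610528A11Rik made up the rest of the 15 lowest, with log2 ratios of -2.16 to -1.21. Sprr2a3 has close copies in its family, so its count is uncertain. Of 4 genes measured in the cornified envelope list, which does not hold Sprr2a3, Sprr1a alone was lower, and Sbsn, Tgm3 and Krtdap passed in neither direction, as did both measured markers of differentiating oral keratinocytes. With each cell weighted equally the mean log2 ratio was -1.54 for Chil4 and -2.77 for Krt16, against -2.46 and -4.00 from summed UMIs.

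Genes of soluble signals and their carriers are given by list, against the 1.81% higher and 1.83% lower of all 5456 genes. Of 9 peptides, chemokines and growth factors measured, Grp, Cck, Cxcl14 and Ntf3 were higher, Grp being one of the given markers, and 0 lower, with a list median log2 of 0.49 against -0.03 over all genes. Cck (cholecystokinin) was at 456 and 401 CPM in Dcn-high cells, against 160 and 161 CPM in Dcn-low basal cells. The chemokine Cxcl14 was at 272 and 211 CPM, against 81.0 and 78.1 CPM, and the neurotrophin Ntf3 at 31.9 and 45.0 CPM, against 14.1 and 13.5 CPM.

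Of 7 genes of the insulin-like growth factor system, the binding proteins Igfbp4, Igfbp5 and Igfbp6 were higher (log2 ratios of 0.72 to 1.16) and Igfbp3 was lower (-1.04 and -1.34); the list median was 0.62. Igf1r, the receptor and a reported binding partner of decorin, was at 56.3 and 53.8 CPM in Dcn-high cells, against 76.2 and 74.5 CPM in Dcn-low basal cells, which did not pass. None of the 3 measured decorin-binding receptors passed, and Egfr, another reported partner, had log2 ratios of 0.03 and 0.02. Of 8 genes of TGF-β, a cytokine that decorin binds, 0 passed and the list median was 0.05. Of 4 genes measured among those that build the glycosaminoglycan chain of decorin and other proteoglycans, 0 passed and the list median was -0.25.

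In the matrix list, tenascin C (Tnc) and fibulin 1 (Fbln1) were higher of 6 measured, with log2 ratios of 1.75 and 1.32 and of 1.10 and 1.21. Egfl6 was the only one of 4 basement membrane genes to pass. The 6 hemidesmosome genes all stayed within the rule, with a list median of -0.17. Itgb4, whose product was the sort marker, was at 123 and 101 CPM in Dcn-high cells, against 131 and 119 CPM in Dcn-low basal cells. Its partner Itga6 was at 230 and 176 CPM, against 323 and 306 CPM, past 1.5-fold in library 2 only.

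Candidate stem cell markers split, with Igfbp5, Krt15 and Slc1a3 higher and Ly6d and Ly6a lower of 8 measured. In the list of protocadherins and atypical cadherins Pcdh20 and Cdh13 were higher and Fat2 lower of 6. Bmp4 and Id2, a BMP ligand and a target, were lower of 8 in the BMP list. The hedgehog co-receptor Boc was higher of 4, and the Wnt modulator Dkk3 was higher of 9 in the Wnt list, at log2 ratios of 0.60 and 0.60 just past the limit. Cdk6 was lower of 10 cyclin and inhibitor genes, the adherens junction gene Pvrl1 of 8, and the glutathione transferases Gsta3 and Gsta4 of 17 antioxidant genes. Chil4 and the defensin Defb1 were lower of 6 in the defence list. No gene passed in either direction among 8 desmosome, 6 Notch, 11 heat shock, 12 glycolysis, 8 cholesterol synthesis, 10 interferon response and 9 immediate early genes.

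**Figure D3:**
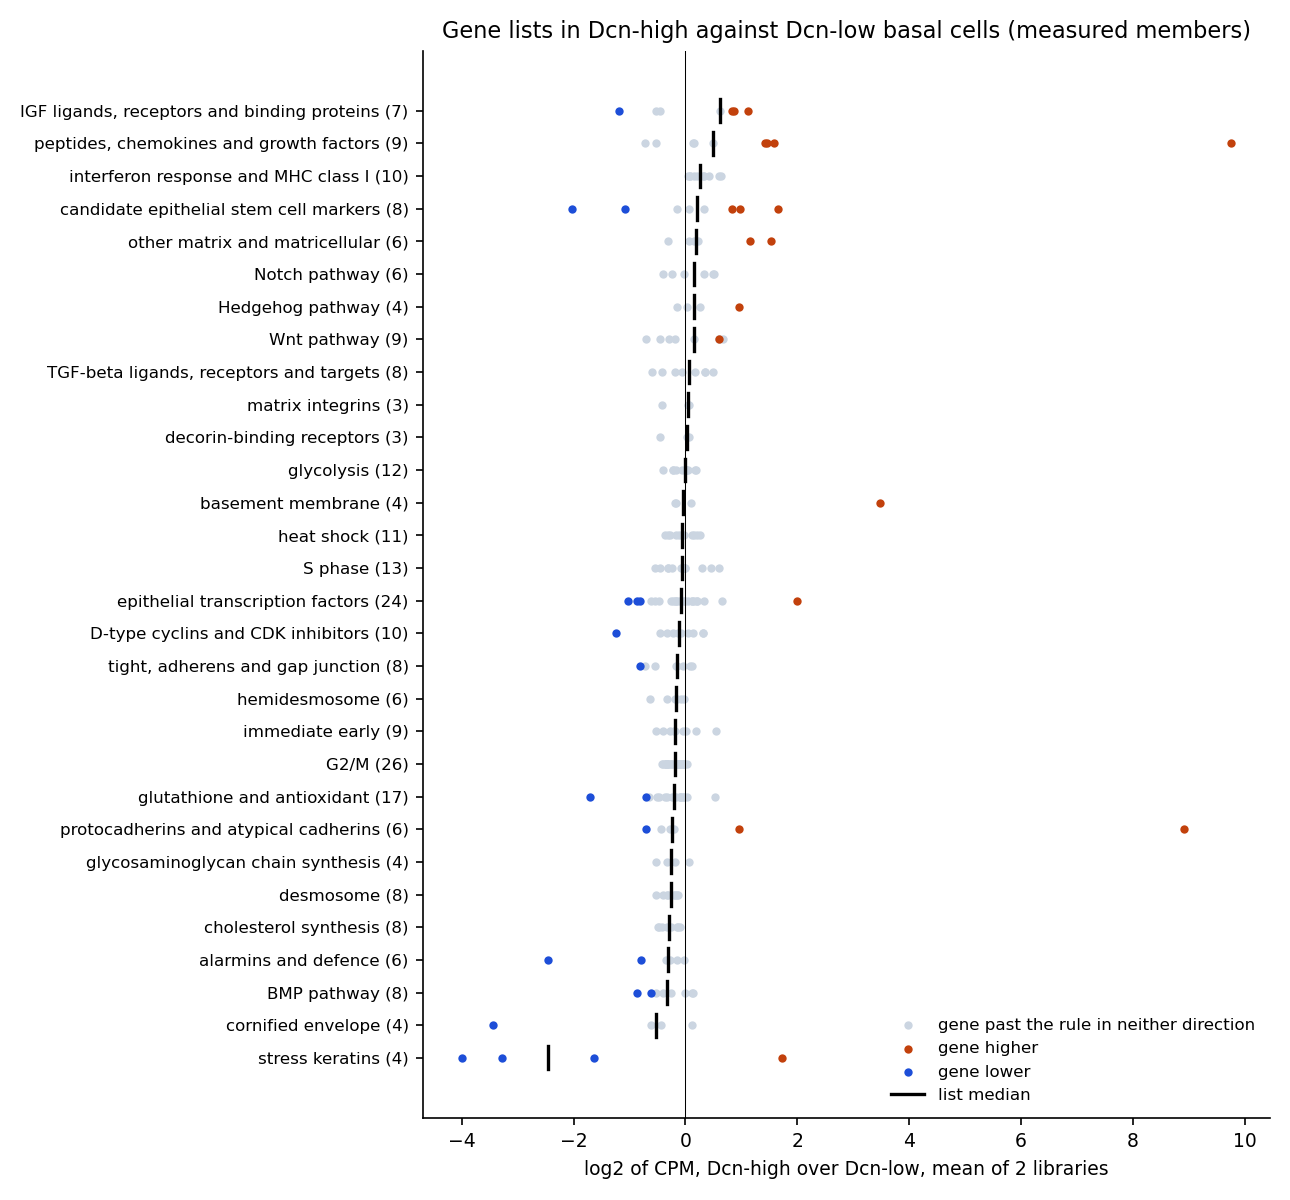
Log2 ratio of CPM, Dcn-high over Dcn-low basal cells (mean of 2 libraries), for the measured members of each gene list, with the number measured in brackets. Black bars are list medians; stress keratins have the lowest at -2.45 with Krt17 alone above 0, and most lists lie near 0.

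The Dcn-high cells divided again by their own Dcn level. Bins of 15 to 30, 30 to 60 and at least 60 Dcn UMIs per 10000 held 126, 55 and 50 cells, with median depths of 5576, 5541 and 5507 UMIs. Krt17 was at 294 and 235 CPM in Dcn-low basal cells, 54.1 and 87.1 CPM at Dcn of 15 to 30, 708 and 1069 CPM at 30 to 60, and 2646 and 2795 CPM at 60 and above. By CPM the lowest bin lay below Dcn-low basal cells, whose level came mostly from 62 cells, and the 2 upper bins lay above them in both libraries. By detection the lowest bin was not below, with a Krt17 UMI in 17.5% of its cells, against 14.6% of Dcn-low basal cells.

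Grp was at 0.0972 and 0.05 CPM in Dcn-low basal cells, 0 and 0 CPM at 15 to 30, 6.68 and 38.9 CPM at 30 to 60, and 185 and 331 CPM at 60 and above, where 85 of its 94 UMIs lay. Pcdh20 stood at 0.292 and 0.05 CPM, then 2.85 and 14.1 CPM, then 46.8 and 63.2 CPM, and 185 and 171 CPM in the highest bin. Egfl6 stood at 28.3 and 27.1 CPM, then 88.3 and 96.5 CPM, then 347 and 340 CPM, and 912 and 674 CPM. Krt15 was already raised in the lowest bin, at 4734 and 4949 CPM, and reached 9642 and 7362 CPM in the highest.

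Of 142 named and listed genes followed over these 4 steps, many of them chosen for a difference between the classes, 12 increased and 6 decreased at every step in both libraries. Over all 5456 genes the shares were 0.825% and 1.06%. Krt15, Pcdh20, Egfl6, Itm2a, Serpine2, Selm, Lgals1, Smoc2, Pappa, Tnc, Ntf3 and Boc were the 12, and Itga6, Bmp4, Defb1, S100a11, Gsta4 and Gstm1 the 6. Some of these orders rested on few UMIs. From the lowest bin to the highest, Bmp4 had 15, 5 and 2 UMIs and Boc had 26, 18 and 21. Itga6 was at 323 and 306 CPM in Dcn-low basal cells, 262 and 235 CPM at 15 to 30, 254 and 136 CPM at 30 to 60, and 134 and 76.8 CPM at 60 and above. Gstm1, a glutathione transferase, was at 338 and 490 CPM in the highest bin, against 996 and 1121 CPM in Dcn-low basal cells. Krt5 showed no such order, at 3711 and 2812 CPM in the highest bin and 3454 and 3208 CPM in Dcn-low basal cells. Igfbp3 showed none either, at 131 and 145 CPM in Dcn-low basal cells and 5.70 and 63.6 CPM at 15 to 30. It was at 93.6 and 29.2 CPM at 30 to 60. In the highest bin it was at 166 and 76.8 CPM, above Dcn-low basal cells in library 1 only.

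**Figure D4:**
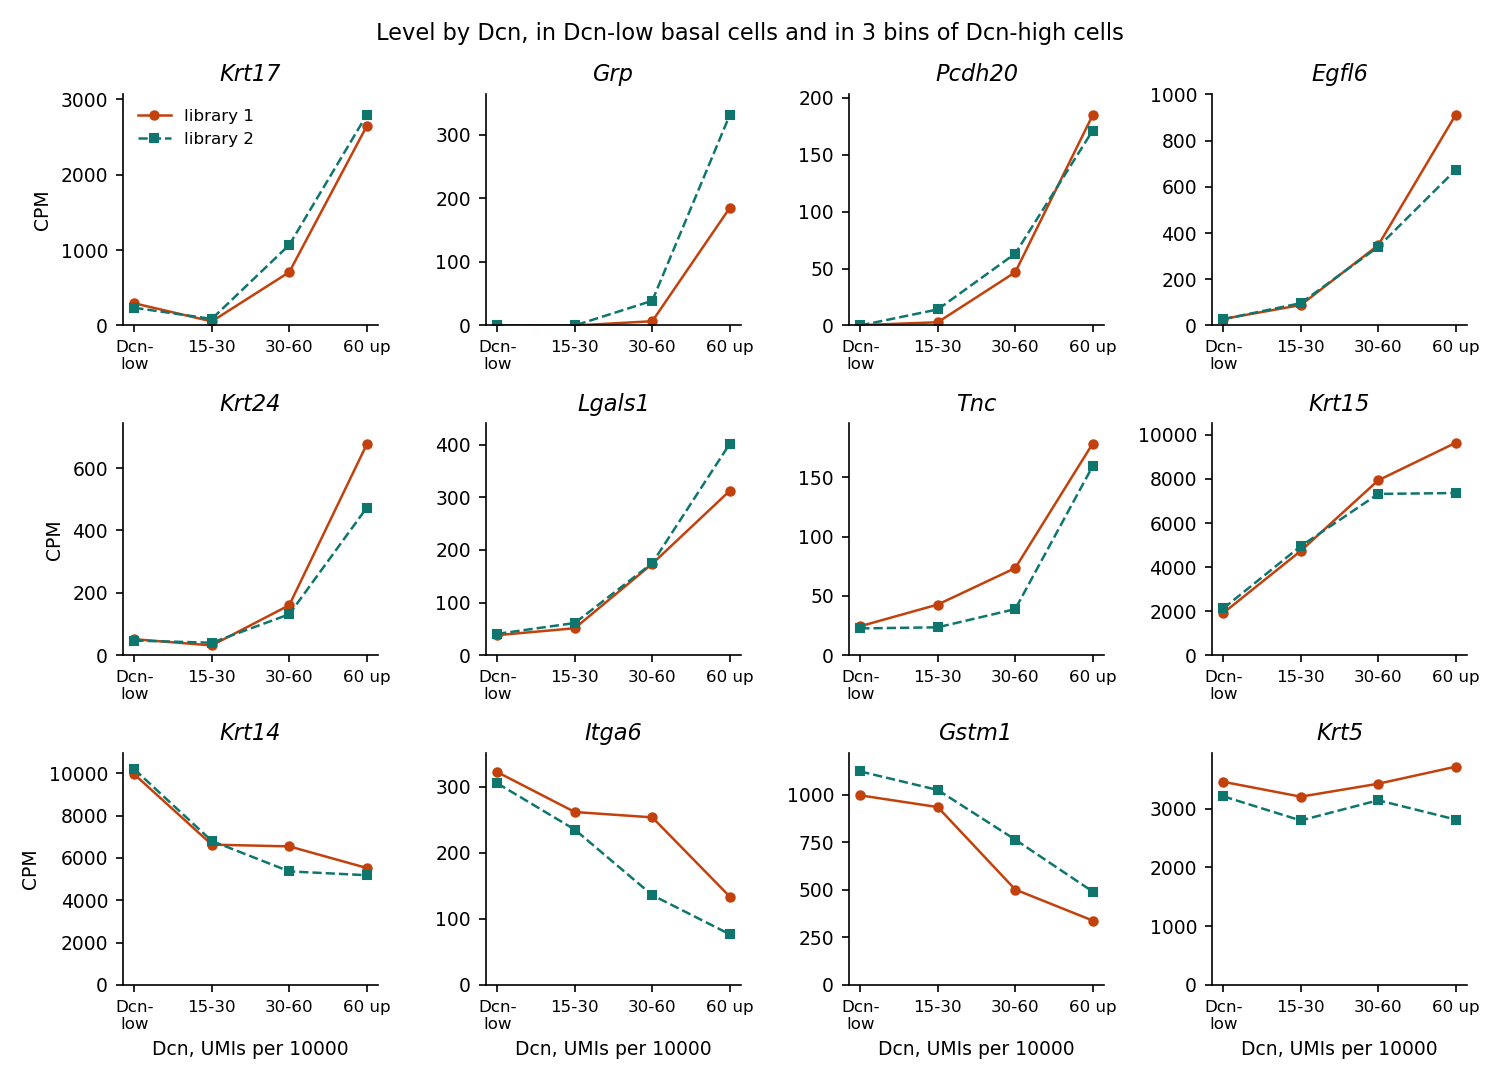
CPM of 12 genes in Dcn-low basal cells and in Dcn-high cells with 15 to 30, 30 to 60 and at least 60 Dcn UMIs per 10000, with solid lines and circles for library 1 and dashed lines and squares for library 2. Krt17, Grp and Krt24 climb only from 30 upward, Pcdh20 and Egfl6 climb at every step, Krt15 climbs from the first bin, Itga6 and Gstm1 descend, and Krt5 is level.

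A comparison of the highest with the lowest bin was added after the data had been seen. Of 1399 genes with a mean of at least 100 CPM, 66 (4.72%) were higher and 26 (1.86%) lower at Dcn of at least 60 than at 15 to 30. The genes named here were picked from the extremes after their values were known. Krt24 was at 676 and 473 CPM in the highest bin, against 31.3 and 40.02 CPM in the lowest. Calml3, a calmodulin-like protein of stratified epithelia, was at 1428 and 1312 CPM, against 624 and 589 CPM, and Krtdap, a product of differentiating keratinocytes, at 440 and 443 CPM, against 162 and 228 CPM. Slc3a2, the partner chain of the Slc7a5 carrier, and Wnt16 were higher as well, with log2 ratios of 1.25 and 1.18 and of 1.40 and 0.94.

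At the other end, the water and glycerol channel Aqp3 was at 31.9 and 59.1 CPM in the highest bin, against 308 and 283 CPM in the lowest. The noncoding RNA H19 was at 147 and 100 CPM, against 570 and 577 CPM. The transcription factors Klf5 (log2 ratios -1.41 and -1.85) and Barx2 (-1.60 and -1.84), both epithelial, were lower too, as was Itga6, the only one of 3 hemidesmosome genes measured here to pass. Mki67 and 3 other members of the list of 16 measured G2/M genes were higher and 0 lower, with a list median log2 of 0.18. The share of cells called cycling, as defined below, was 36.0% in the highest bin and 36.5% in the lowest. The median sum of the G2/M list was 2.02 and 2.94 UMIs per 10000 in those bins.

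Cells with several of the given markers Krt17, Grp, Pcdh20 and Egfl6 were more frequent at high Dcn. Each of these markers was also detected more often there, and whether they shared cells beyond that was not tested. At least 2 of Krt17, Grp, Pcdh20 and Egfl6 were detected in 44 of 50 cells (88.0%) at Dcn of 60 and above, in 20 of 55 (36.4%) at 30 to 60, in 3 of 126 (2.38%) at 15 to 30, and in 34 of 6195 Dcn-low basal cells (0.549%). After thinning to 3000 UMIs, Egfl6 was detected in 84.0% of cells of the highest bin (interval 70.9 to 92.8%), 16.7% of the lowest bin (10.6 to 24.3%), 7.96% of Dcn-low basal cells and 1 of 48 immune cells. Pcdh20 was detected in 42.0% of cells of the highest bin (28.2 to 56.8%) and in 0.0323% of Dcn-low basal cells, and Grp in 40% (26.4 to 54.8%) and 0.0161%. Both were at 0 of 48 immune cells, which allows a share of up to about 6.25%. Over all kept cells, 128 held a Grp or Pcdh20 UMI; 59 were Dcn-high, 30 had Dcn of at least 15 with Krt14 under 20, and 39 (30.5%) had Dcn under 15, among them 19 differentiating and 9 Dcn-low basal cells.

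**Figure D5:**
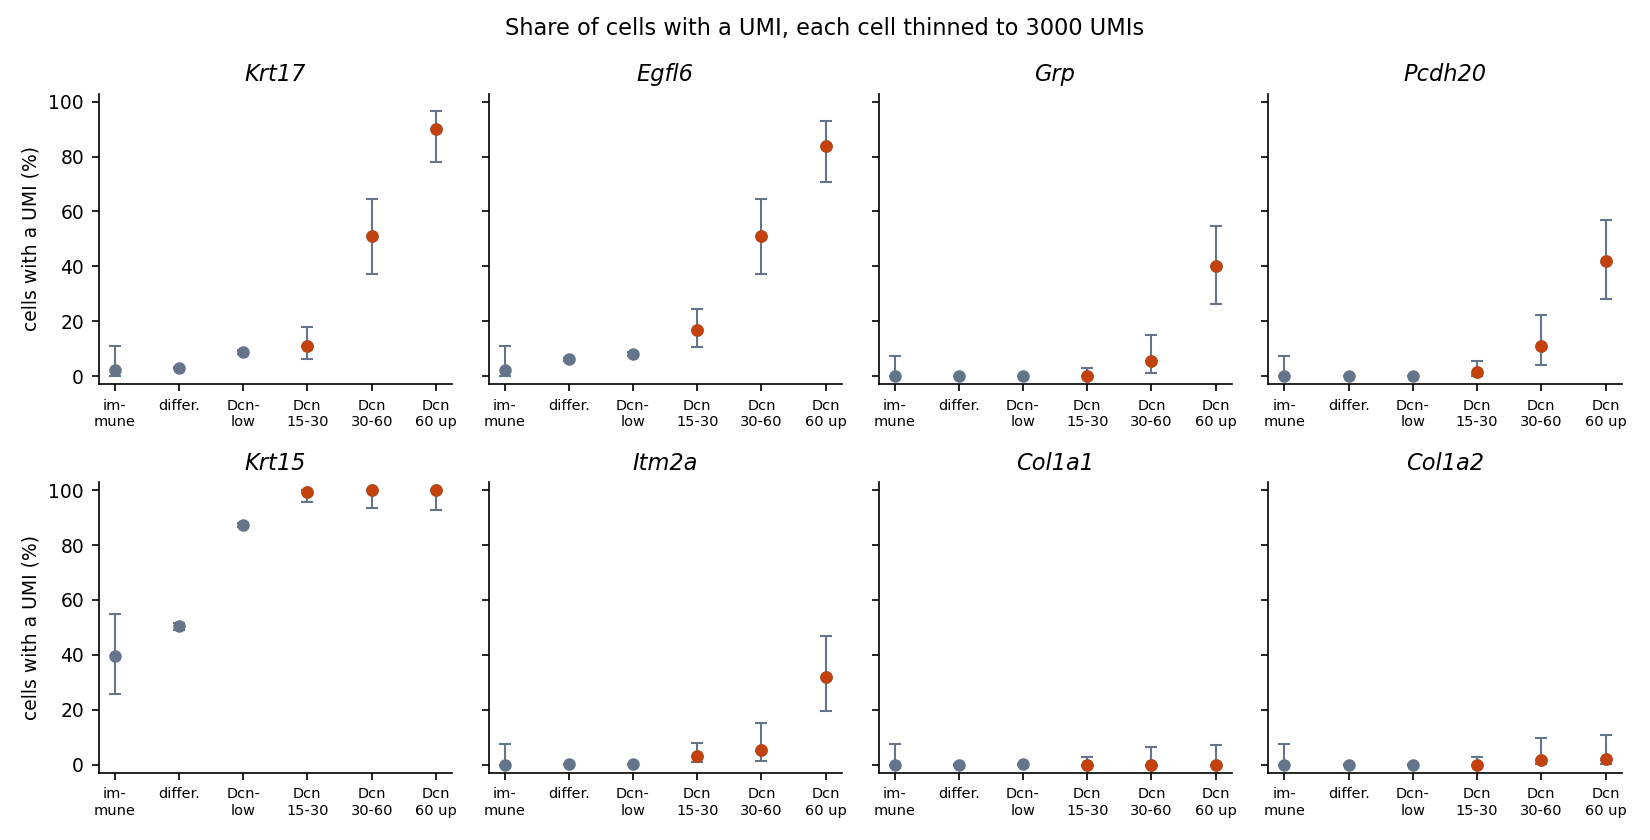
Percent of cells with a UMI of each gene after thinning to 3000 UMIs per cell, with 95% exact binomial intervals, for immune cells (48), differentiating cells (6228, labelled differ.), Dcn-low basal cells (6195) and the 3 Dcn bins (126, 55 and 50 cells, in orange). Krt17, Egfl6, Grp, Pcdh20 and Itm2a climb with Dcn, while Col1a1 stays at 0 and Col1a2 near 0 in the same bins.

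Dcn itself was not confined to the cells above the limit. After thinning it was detected in 10.8% of Dcn-low basal cells (interval 10.1 to 11.6%), 2.57% of differentiating cells (2.19 to 2.99%) and 1 of 48 immune cells (2.08%, 0.0527 to 11.1%). Unthinned median depths were 5844, 10022 and 6822 UMIs in those 3 classes. Over 6888 and 8534 kept keratinocytes, the gene most like Dcn by Spearman correlation of thinned counts was Krt15, at 0.247 and 0.243 in libraries 1 and 2. Hpgd, Pappa, Cck, Tfap2b, Igfbp7, Apoe, Smoc2, Fth1 and Ccnd2 followed, with means of 0.221 to 0.148. These values describe cells that share a library and a depth, across 5107 genes, and most are weak.

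With Dcn, Krt14, Krt4, Krt13 and the other markers left out, 30 principal components were computed and the 15 nearest cells of each cell were found. On average 33.7% of the nearest cells of a Dcn-high cell were Dcn-high, against 1.12% for Dcn-low basal cells, where Dcn-high cells made up 1.49% of all kept cells. The share was 18.9% at Dcn of 15 to 30, 37.6% at 30 to 60 and 66.5% at 60 and above. Dcn-low basal cells made up 48.7% of the nearest cells of a Dcn-high cell. Their share was 64.6% at Dcn of 15 to 30, 45.1% at 30 to 60 and 12.9% at 60 and above. Of the 126 cells at 15 to 30, 34 had no Dcn-high cell among their nearest. Of a Dcn-high cell's nearest cells, 54.2% came from its own library, against 53.2% for Dcn-low basal cells.

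Since Krt15 was the gene most like Dcn, the Dcn-high cells were also set against the Dcn-low basal cells with at least 40 Krt15 UMIs per 10000 (364 and 562 cells), a comparison added after the data had been seen. Krt15 was then at 6634 and 6069 CPM in Dcn-high cells and at 5842 and 5894 CPM in the Krt15-rich cells. Of 5412 genes, 148 (2.73%) were higher and 104 (1.92%) lower, and 67 of these 148 and 57 of these 104 were also among the 99 and 100 of the first comparison. Grp, Pcdh20, Itm2a, Steap4, Egfl6, Nppc, Serpine2, Selm, Tfap2b, Lgals1, Smoc2, Krt24, St3gal4, Slc7a5 and Pappa, the 15 highest, were called higher here too. They were chosen from the same 231 cells and the Krt15-rich cells are part of the first comparison group, so this is a description.

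Krt17 separated the classes more widely in that setting, at 821 and 913 CPM in Dcn-high cells, against 70.8 and 63.9 CPM in Krt15-rich cells (log2 ratios 3.54 and 3.84). Krt6a and Chil4 no longer differed by 1.5-fold. Igfbp4 (log2 ratios 0.68 and 0.40), Igfbp5 (0.74 and 0.54) and Igfbp6 (0.54 and 0.56) no longer passed in both libraries. Of 7 genes of the insulin-like growth factor system, 0 were higher and 2 lower there. Krt16, Krt6b, Sprr1a, Sprr2a3 and Tmem45a could not be called because their means fell under 20 CPM. Of these, Krt6b (log2 ratios -0.65 and -0.83) and Tmem45a (-0.68 and -1.43) were still past 1.5-fold in both libraries. Krt16 (0.66 and -0.73) had opposite signs in the 2 libraries. Sprr1a (-0.97 and -0.43) and Sprr2a3 (-0.65 and -0.48) were past 1.5-fold in library 1 only. Chil4 was at 246 and 279 CPM in Dcn-high cells and 230 and 291 CPM in Krt15-rich cells, and Krt6a at 126 and 139 CPM and 163 and 169 CPM. Ly6d (log2 ratios -1.63 and -1.52), Egln3 (-3.19 and -2.47), Igfbp3 (-2.06 and -1.83) and Klf4 (-0.84 and -0.68) stayed lower. Some genes passed in this setting only. Of 8 genes of the TGF-β list, Tgfbi was lower (-0.79 and -1.18) and 0 were higher. Of 7 Notch genes, Jag1 (0.62 and 0.98) and Nrarp (0.96 and 0.71) were higher and 0 were lower. Of 10 S phase genes measured, 7 were higher in Dcn-high cells and 0 lower, against 2.73% and 1.92% of all genes, with a list median log2 of 1.01, a list in which 0 of 13 had passed against all Dcn-low basal cells; how far the share of cycling cells bears on this was not tested.

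The share of cells called cycling was smaller among Dcn-high cells in both libraries. With a cell called cycling at 10 or more S phase or G2/M UMIs per 10000, 32.7% and 40.6% of Dcn-high cells were cycling (intervals 23.5 to 42.9% and 32.2 to 49.5%), against 45.4% and 50.6% of Dcn-low basal cells (43.6 to 47.3% and 48.8 to 52.3%). The intervals of the classes did not overlap in library 1 and overlapped in library 2, and 5 and 6 Dcn-high cells had scores between 8 and 12, near the limit. Free RNA can enter such calls, and its part was not tested. None of 13 S phase and 26 G2/M genes measured passed in the comparison of all cells, with list medians of -0.07 and -0.19.

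The comparison was repeated in cells of the same state, with Dcn-low cells of at least 20 Krt14 and no limit on Krt4 or Krt13. Among cells not cycling (66 and 79 Dcn-high cells), 174 of 5256 genes were higher (3.31%) and 207 lower (3.94%). Among cycling cells (32 and 54 Dcn-high cells), 144 of 5486 were higher (2.62%) and 140 lower (2.55%). The states shared 55 higher genes, which is 31.6% of the first list and 38.2% of the second, and 70 lower genes, which is 33.8% and 50%. Krt17 was at 892 and 726 CPM in Dcn-high cells not cycling, against 442 and 337 CPM in Dcn-low cells not cycling, and at 711 and 1112 CPM in cycling Dcn-high cells, against 119 and 89.6 CPM in cycling Dcn-low cells. Egfl6, Pcdh20, Grp, Krt15, Tfap2b, Lgals1 and Krt24 were higher and Krt16, Krt6a, Chil4 and Ly6d lower in both states.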

How the data were processed

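The deposited values are UMI counts per gene and barcode, made with Cell Ranger on mm10 per the submitters' processing notes; its version, annotation and cell-calling filter were not given in the sources used here. Barcodes with under 500 genes or over 10% mitochondrial UMIs were left out. The members and gene lists were chosen with earlier results of these data known. Counts were summed per class and library and scaled to CPM, leaving 5456 genes with a mean of at least 20 CPM. The 2 libraries come from 1 suspension, so their spread is technical, no test was made, and a gene was called at 1.5-fold in the same direction in both. Named genes were the 15 highest and 15 lowest by the smaller of the libraries' log2 ratios, 6 given markers, 4 fibroblast genes and up to 4 examples per list. Shares of cells with a UMI used cells thinned to 3000 UMIs. Intervals are exact at 95% and cover counting error only. Limits given as about a value for a count of 0 are approximate. Scrublet in scanpy 1.11.5 marked 1 barcode per library (0.0139% and 0.011%), none Dcn-high; so few marks were not used, and doublets were not removed. The size rule was tested on simulated data. Gene coordinates are those of GENCODE M21 on GRCm38, which matched 27645 of 27998 gene identifiers (98.7%). Analyses used Python 3.11.15, numpy 2.4.6, scipy 1.17.1, pandas 2.3.3 and scikit-learn 1.9.0.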

Additional observations from a re-analysis of the deposited data

Results flagged for a closer look

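Jun, an immediate early transcription factor gene, had log2 ratios of opposite sign in the cell states, of which only that in cells not cycling passed the 1.5-fold rule. Its log2 ratio of Dcn-high over Dcn-low cells was -1.66 in cells not cycling, with 5.01 and 17.0 CPM in Dcn-high cells and 27.2 and 31.4 CPM in Dcn-low cells of libraries 1 and 2. In cycling cells it was 0.69, with 42.5 and 25.8 CPM in Dcn-high cells and 19.5 and 21.7 CPM in Dcn-low cells. All Dcn-high cells together held 30 Jun UMIs, and the difference between the states was not tested.

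Among the barcodes left out for mitochondrial UMIs in library 2, 5 of 513 (0.975%, exact interval 0.317 to 2.26%) passed the Dcn and Krt14 limits. The share among kept cells of library 2, 1.55%, lies inside that interval. A count of 0 of 513 would have allowed about 0.585%. In library 1 the number was 0 of 308, with an exact interval of 0 to 1.19%.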

How the results depend on the processing

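No paired analysis was possible because the libraries are technical replicates of 1 sample and no test was made. The share of Dcn-high cells was 2.22% with Dcn of at least 10, 0.678% with at least 30, 1.04% with the limits on Krt14, Krt4 and Krt13 of the comparison cells, and 1.42 to 1.55% with either library alone. With at least 10 of Krt5 in place of the Krt14 limit, an alternative chosen after seeing the data, it was 1.85%. The 99 higher and 100 lower genes became 63 and 61 with Dcn of at least 10, 276 and 211 with at least 30, 328 and 311 at 5 CPM, 38 and 39 at 50 CPM, and 40 and 29 at 2-fold. With at most 5% mitochondrial UMIs they were 141 and 152. With the limits on Krt14, Krt4 and Krt13 of the comparison cells in both classes they were 119 and 124. Of these, 81 and 70 were among the 99 and 100. With 1 library left out, where a single library has to pass, 239 to 261 were higher and 238 to 384 lower, and in the comparison of the highest with the lowest Dcn bin 152 to 166 higher and 83 to 104 lower. Thinning to 3000 UMIs gave 130 and 128, of which 73 and 62 were among the 99 and 100. Against comparison cells with Krt15 of at least 40, chosen after seeing the data, the stress keratin median turned to 1.68, with 2 members measured, and Chil4 to 0.018. Over 142 named genes and all alternatives, 1933 of 2584 values stayed within the spread between libraries, 650 moved and 1 reversed; the cause was not tested. Krt17 moved to a log2 ratio of 0.90 without cycling cells. Depth limits Grp, Pcdh20 and the bins: 24 and 26 cells at the highest Dcn level.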
